A study of Mus musculus with 16 samples.

Results

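The genes described here are the cell cycle and DNA replication genes of mouse monocytes, a list of 41 symbols that runs from the G1 cyclins to the kinesins and kinases of mitosis. All 41 were found by symbol among the 13085 genes of the deposited table of normalized expression. The study sequenced polyadenylated RNA of monocytes from NFAM1+/+ mice and from NFAM1-/- mice on a C57BL/6 background. NFAM1 is a receptor of myeloid cells whose cytoplasmic tail carries an activating motif, and the NFAM1-/- mice carry a CRISPR/Cas9 deletion of exons 2 and 3. The 16 libraries were made after 6 or 24 h of culture, either with no stimulus or after 1 h with 100 µg/mL IFN-γ and then 1 µg/mL MegaCD40L, a multimeric form of CD40 ligand, as the labels give the doses (the methods for sequencing give another IFN-γ dose). Each combination of genotype, stimulus and time holds 2 libraries, so that each combination of stimulus and time holds 4.

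Several limits of the labels bear on the groups. For 4 libraries of 24 h the genotype in the title is not that of the tag, namely 44 and 46 without and 56 and 58 with stimulus. Groups here follow the title, and the genotype differences named at 24 h are also given by the tag and without those 4 libraries. The comparisons of stimulus and of time weigh the genotypes equally and use the same 4 libraries a side by either label. The labels name the cells as blood monocytes, the methods describe enrichment from bone marrow, and part of the series text describes human cells, although every library is labelled as mouse. The labels do not tie libraries to mice, so that p-values measure the spread between libraries, which may be partly technical. *Nfam1* was still counted in the NFAM1-/- libraries. Counts are per gene and not per exon, so that the level of *Nfam1* does not by itself show the genotype. At 6 h without stimulus it was 431.9 and 408.3 CPM in NFAM1+/+ and 299.2 and 321.4 CPM in NFAM1-/- libraries, and with stimulus 133.4 and 129.2 CPM against 134.6 and 126.6 CPM. At 24 h, by title, it was 462.9 and 494.6 CPM in NFAM1+/+ and 441.0 and 391.2 CPM in NFAM1-/- libraries without stimulus, and 270.9 and 251.6 CPM against 200.9 and 223.4 CPM with it. NFAM1-/- libraries were lower without overlap by title at 24 h and at 6 h without stimulus, the groups overlapped at 6 h with stimulus, and by the tag the groups of 24 h overlapped in each stimulus.

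A cell that divides passes through G1, S, G2 and mitosis. D cyclins with Cdk4, and then E cyclins with Cdk2, carry it out of G1 by releasing E2F transcription factors from the retinoblastoma proteins, while the inhibitors p21 and p27 restrain these kinases. Replication origins are loaded with the Mcm helicase in G1 and fired in S phase, and a later wave of transcription supplies cyclins A and B, Cdk1 and the mitotic machinery. Circulating monocytes are mostly out of the cycle, whereas their precursors in the bone marrow divide, and IFN-γ is known for its antiproliferative action on macrophages.

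E2F factors bind promoters through the letters TTTCCCGC, TTTCGCGC, TTTGCCGC and TTTGGCGC, and the late genes carry a cell cycle homology region, the CHR element, with the letters TTTGAA or TTCGAA. Both were searched on both strands of RefSeq promoters of build GRCm38.p6, which run from 250 bases before to 50 bases after each start. The table held promoters for 32 of the 41 members, with 2 promoters each for 3 of them. A member was counted if any of its promoters held the letters, whereas the shares of all promoters count each promoter singly. An E2F site was present in 6 of the 7 matched origin licensing genes (*Cdc6*, *Cdt1*, *Mcm3*, *Mcm5*, *Mcm6* and *Mcm7*) and in 0 of the 8 matched mitosis genes, against 2.26% of all 32851 promoters. A CHR element was present in 7 of the 8 mitosis genes (*Aurka*, *Bub1*, *Bub1b*, *Plk1*, *Kif11*, *Top2a* and *Mki67*), against 19.2% of all promoters. CCAAT boxes (letters CCAAT) were found in 24 of the 32 members and 37.4% of all promoters and E-boxes of the Myc type (CACGTG) in *Cdk4* and *Tyms* alone and in 7.15% of all. *Cdkn1a* and *Ccnd3* held none of the E2F, CHR or E-box letters in this window. A match describes letters only and shows no binding.

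The 200 bases before the start are printed 5′ to 3′ for 6 members that stand for these patterns, *Mcm5* and *Mcm6* for the E2F site, *Cdk1* for both, *Mki67* and *Top2a* for the CHR element and *Cdk4* for the E-box, with the named motif in capitals. In *Mcm5* and *Mcm6*, neighbouring E2F sites on opposite strands overlap and form a single run of capitals.
Mcm5 (chr8:75109309-75109508, plus strand): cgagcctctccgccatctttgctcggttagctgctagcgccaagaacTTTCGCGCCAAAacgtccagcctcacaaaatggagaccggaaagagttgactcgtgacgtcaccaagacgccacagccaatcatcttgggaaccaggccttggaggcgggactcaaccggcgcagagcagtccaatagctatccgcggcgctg
Mcm6 (chr1:128359706-128359905, minus strand): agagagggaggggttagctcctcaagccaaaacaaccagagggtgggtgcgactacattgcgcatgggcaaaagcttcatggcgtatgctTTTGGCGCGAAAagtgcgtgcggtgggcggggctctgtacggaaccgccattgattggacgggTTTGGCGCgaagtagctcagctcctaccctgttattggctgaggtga
Cdk1 (chr10:69352913-69353112, minus strand): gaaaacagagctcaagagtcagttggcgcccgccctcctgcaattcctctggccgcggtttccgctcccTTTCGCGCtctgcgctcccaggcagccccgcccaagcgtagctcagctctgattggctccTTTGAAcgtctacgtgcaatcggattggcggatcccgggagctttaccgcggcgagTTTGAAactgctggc
Mki67 (chr7:135716380-135716579, minus strand): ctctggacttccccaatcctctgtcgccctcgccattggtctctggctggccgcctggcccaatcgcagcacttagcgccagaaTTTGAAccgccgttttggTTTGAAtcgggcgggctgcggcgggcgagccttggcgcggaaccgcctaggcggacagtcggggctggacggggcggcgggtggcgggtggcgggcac
Top2a (chr11:99024190-99024389, minus strand): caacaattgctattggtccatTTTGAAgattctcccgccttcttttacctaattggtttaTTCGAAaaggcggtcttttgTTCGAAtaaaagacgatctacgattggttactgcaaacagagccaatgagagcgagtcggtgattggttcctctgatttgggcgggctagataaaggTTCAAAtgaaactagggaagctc
Cdk4 (chr10:127063335-127063534, plus strand): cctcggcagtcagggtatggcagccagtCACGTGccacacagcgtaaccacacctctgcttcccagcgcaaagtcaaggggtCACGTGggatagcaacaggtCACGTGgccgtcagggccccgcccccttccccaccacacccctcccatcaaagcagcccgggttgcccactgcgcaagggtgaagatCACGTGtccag

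Levels below are CPM (read counts scaled to the size of the library), obtained from the deposited log2 CPM, and differences are log2 differences with their standard error (SE). Differences were tested with limma over the 12782 genes that reached 1 CPM in 2 or more libraries, all p-values are Benjamini-Hochberg adjusted over those genes, and calls required a difference of 2-fold or more together with an adjusted p under 0.05. All 41 members passed the filter. The libraries held 48295939 to 88514341 reads on listed genes, and the lowest member value rested on 28 reads (*Ccne1* in library 46). The deposited scaling differs by stimulus: reads over scaled library size were 0.756 to 0.775 without and 1.24 to 1.32 with stimulus at 6 h, and 0.776 to 0.788 and 0.970 to 0.997 at 24 h. Scaling each library to its own reads moved the median difference of all genes with stimulus from -0.13 to -0.86 at 6 h and from 0.01 to -0.33 at 24 h, and that with time in stimulated cells from 0.04 to 0.41.

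**Figure D1:**
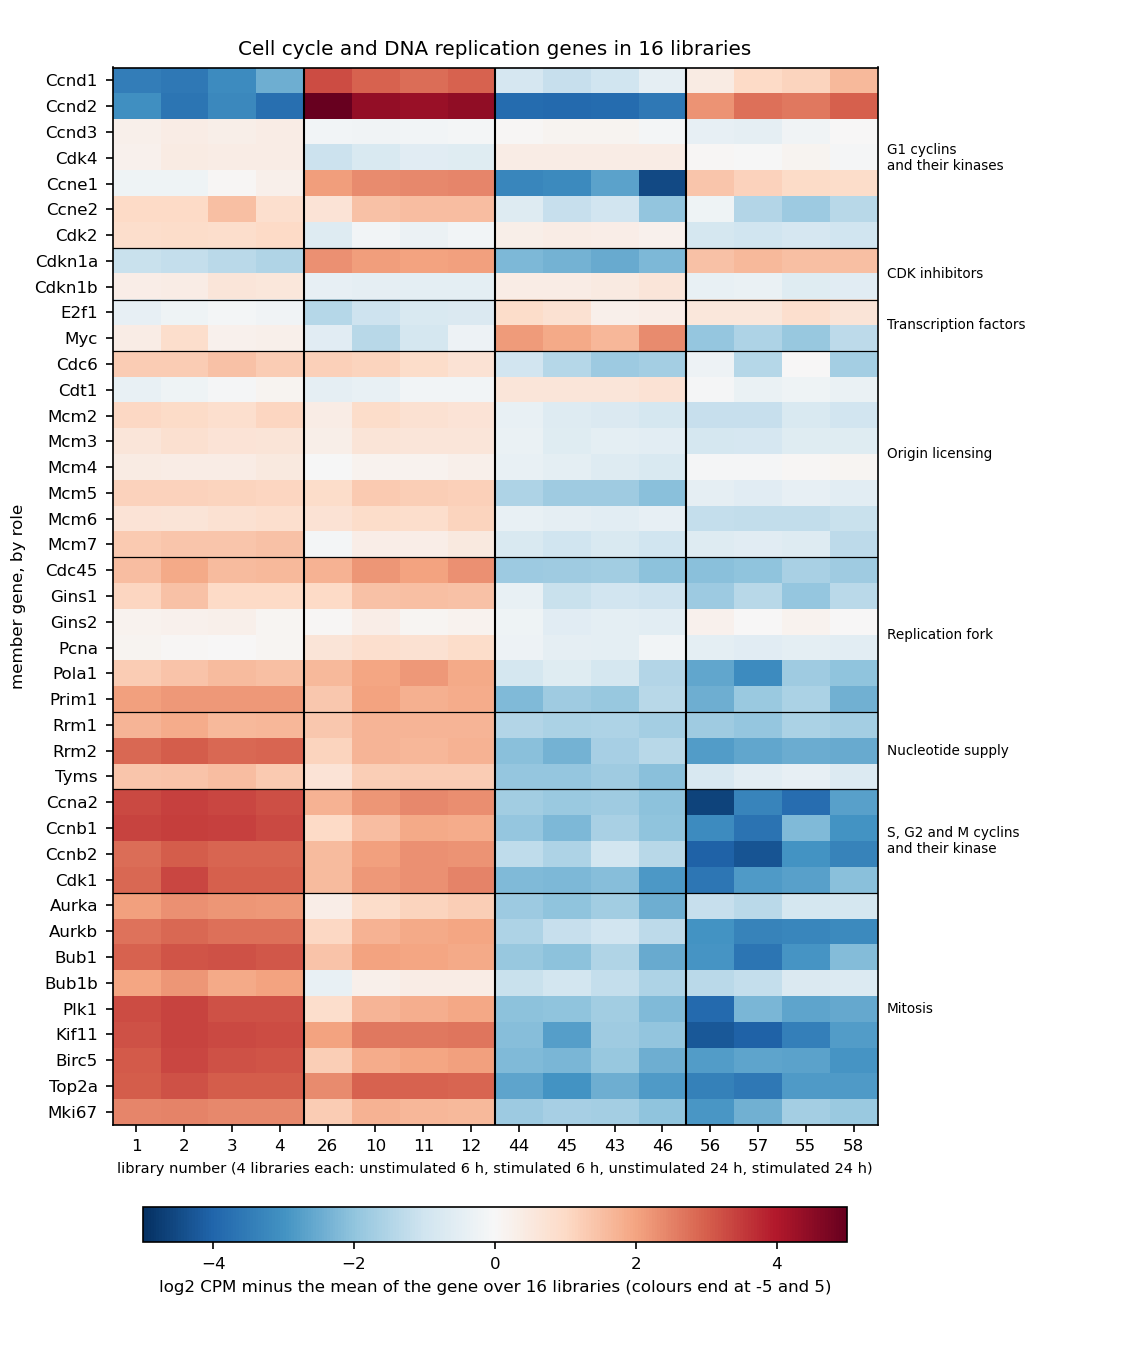
Log2 CPM of the 41 members (rows, grouped by role) in the 16 libraries (columns, by stimulus and time), each row centred on its mean over the 16 libraries, with red for higher and blue for lower values. The S, G2, M and mitosis rows are red in the 8 libraries at 6 h and blue in the 8 at 24 h, except for *Bub1b* in library 26, while *Ccnd1*, *Ccnd2* and *Cdkn1a* follow the stimulus.

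The cells at 6 h carried an abundant programme of mitotic transcripts, and it was largely gone at 24 h with or without stimulus. The summed level of the 13 genes of S, G2 and M phase (*Ccna2*, *Ccnb1*, *Ccnb2*, *Cdk1* and the 9 mitosis genes) was 2269 to 2529 CPM in unstimulated and 945.0 to 1426 CPM in stimulated libraries at 6 h, and 83.1 to 108.0 and 53.1 to 91.3 CPM at 24 h. The 17 genes of licensing, fork and nucleotide supply summed to 828.1 to 876.8 and 703.3 to 896.3 CPM at 6 h, and to 270.2 to 301.1 and 252.6 to 277.7 CPM at 24 h. The groups of 6 h and 24 h did not overlap in either sum, and in such bulk samples fewer dividing cells and less RNA per dividing cell cannot be told apart.

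Between 6 and 24 h without stimulus 29 of the 41 members fell and 2 rose, where 7.76% of all genes were called lower and 13.2% higher. With stimulus 31 fell and 1 rose, where 17.2% of all genes were called lower and 16.5% higher. The median difference of the members was -2.79 without and -1.95 with stimulus, while that of all genes was 0.04 in both. Called lower in both were 28 members, and the share of all genes called lower in both was not counted. The 2 comparisons share no libraries, but they come from the same fit and share its estimate of the spread. *Ccnd1* was called in opposite directions, higher without and lower with stimulus. The 7 members called in neither were *Ccnd3*, *Cdk4*, *Cdk2*, *Cdkn1b*, *Cdt1*, *Mcm4* and *Gins2*. Scaled to own reads, 26 members were called lower and 2 higher with time in stimulated cells, and the split without stimulus was again 29 and 2.

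Markers of other cells also moved with time. Of 7 progenitor markers, all listed, the sum was 65.2 to 100.3 CPM at 6 h and 106.7 to 199.3 CPM at 24 h without stimulus, and 127.4 to 165.8 and 21.1 to 40.6 CPM with it. Within that list the granule protease *Prtn3* went from a mean of 23.0 to 2.75 CPM without stimulus and from 26.3 to 0.194 CPM with it. In contrast, *Flt3* went from 25.1 to 104.9 CPM without stimulus. The list also held opposite differences with stimulus. *Kit* had a mean of 4.31 CPM without and 99.9 CPM with stimulus at 6 h, and 27.6 CPM with stimulus at 24 h. At 6 h *Flt3* went from 25.1 CPM without to 3.77 CPM with stimulus, and *Cd34* from 11.6 to 2.42 CPM. Of 7 neutrophil markers the sum was 64.3 to 213.9 CPM at 6 h and 526.9 to 910.5 CPM at 24 h without stimulus, and 74.3 to 348.7 and 123.3 to 211.1 CPM with it. All 8 monocyte markers were listed, led by the lysozyme gene *Lyz2* at means of 3519 to 21922 CPM by group. Without stimulus their sum was 22240.5 to 24388.7 CPM at 6 h and 26078.6 to 30095.3 CPM at 24 h. With it the sum was 8038.4 to 9954.9 and 8199.4 to 11439.9 CPM. Single markers differed, and at 6 h *Cx3cr1* went from 925.5 CPM without to 51.3 CPM with stimulus and *Ly6c2* from 423.8 to 2400.9 CPM. The 3 listed B cell markers summed to at most 28.0 CPM, the 3 listed T cell markers to at most 11.3 CPM, the 4 listed erythroid markers to at most 41.7 CPM and the 2 listed platelet markers to at most 5.28 CPM in any library, and 0 of 5 NK cell markers were listed. Their part in the results was not tested.

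**Figure D2:**
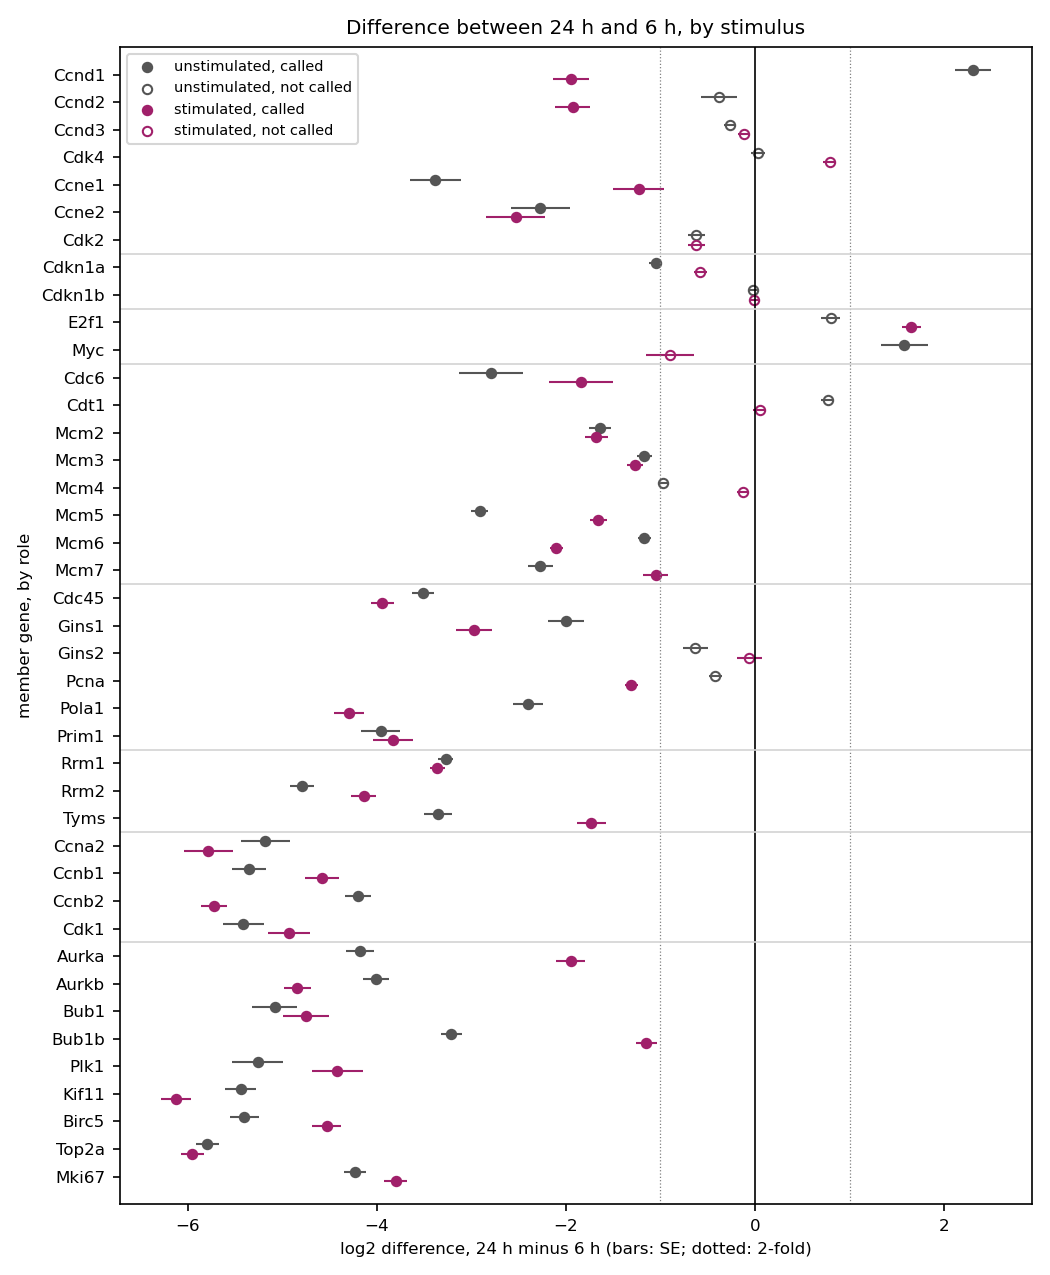
Log2 difference between 24 h and 6 h (horizontal axis) for each member (vertical axis, by role) without (grey) and with stimulus (magenta), from 4 libraries a side with SE bars, filled where called. All 13 S, G2 and M phase genes lie left of the dotted 2-fold line in both, whereas *Ccnd1*, *Myc* and *E2f1* reach the right side in at least 1 of them.

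Cyclins D1, D2 and E1 and p21 rose with stimulus at both times, while 6 of 9 mitosis genes fell at 6 h and 2 of 9 at 24 h. At 6 h 4 members rose and 13 fell, where 19.1% of all genes were called higher and 20.6% lower. At 24 h 6 rose and 8 fell, where 14.6% of all genes were called higher and 18.7% lower. The members' median was -0.39 at 6 h and -0.34 at 24 h. The 4 genes that rose at both times were *Ccnd1*, *Ccnd2*, *Ccne1* and *Cdkn1a*, and the 5 that fell at both were *Cdk2*, *Myc*, *Ccna2*, *Ccnb1* and *Aurkb*. Shares of all genes called alike at both times were not counted. *Cdk4*, *Mcm7*, *Rrm2*, *Aurka*, *Bub1*, *Bub1b*, *Plk1* and *Birc5* fell at 6 h alone, *Pola1*, *Ccnb2* and *Kif11* at 24 h alone, and *Mcm5* and *Tyms* rose at 24 h alone, while 19 members were called at neither time. Scaled to own reads the split was 4 higher and 24 lower at 6 h and 4 higher and 15 lower at 24 h, against 1562 higher and 5563 lower genes of all at 6 h and 1435 and 3281 at 24 h. The members lower at 6 h under that scaling and not the deposited one were *Ccnd3* (-1.19), *Cdkn1b* (-1.67), *E2f1* (-1.50), *Cdc6* (-1.05), *Mcm2* (-1.03), *Prim1* (-1.12), *Tyms* (-1.03), *Ccnb2* (-1.60), *Cdk1* (-1.65), *Kif11* (-1.51) and *Mki67* (-1.59). At 24 h they were *Cdkn1b* (-1.26), *Cdt1* (-1.19), *Mcm6* (-1.09), *Gins1* (-1.09), *Rrm2* (-1.06), *Bub1* (-1.27) and *Plk1* (-1.18). Positive differences of members not called became negative in *Ccne2*, *Mcm5*, *Mcm6*, *Cdc45*, *Gins1*, *Pcna* and *Pola1* at 6 h and in *E2f1*, *Mcm7* and *Bub1b* at 24 h.

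The difference between the stimulus effects at 24 h and at 6 h was tested as an interaction over all 16 libraries. It was called for 11 members, higher in 6 (*Ccne1*, *Mcm5*, *Mcm7*, *Tyms*, *Aurka* and *Bub1b*) and lower in 5 (*Ccnd1*, *Ccnd2*, *Myc*, *Pola1* and *Ccnb2*), where 13.3% of all genes were called higher and 18.2% lower. This split depended on the scaling, with 14 higher and 5 lower scaled to own reads, 14 and 3 after quantile normalization, and 6 and 8 centred on medians.

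**Figure D3:**
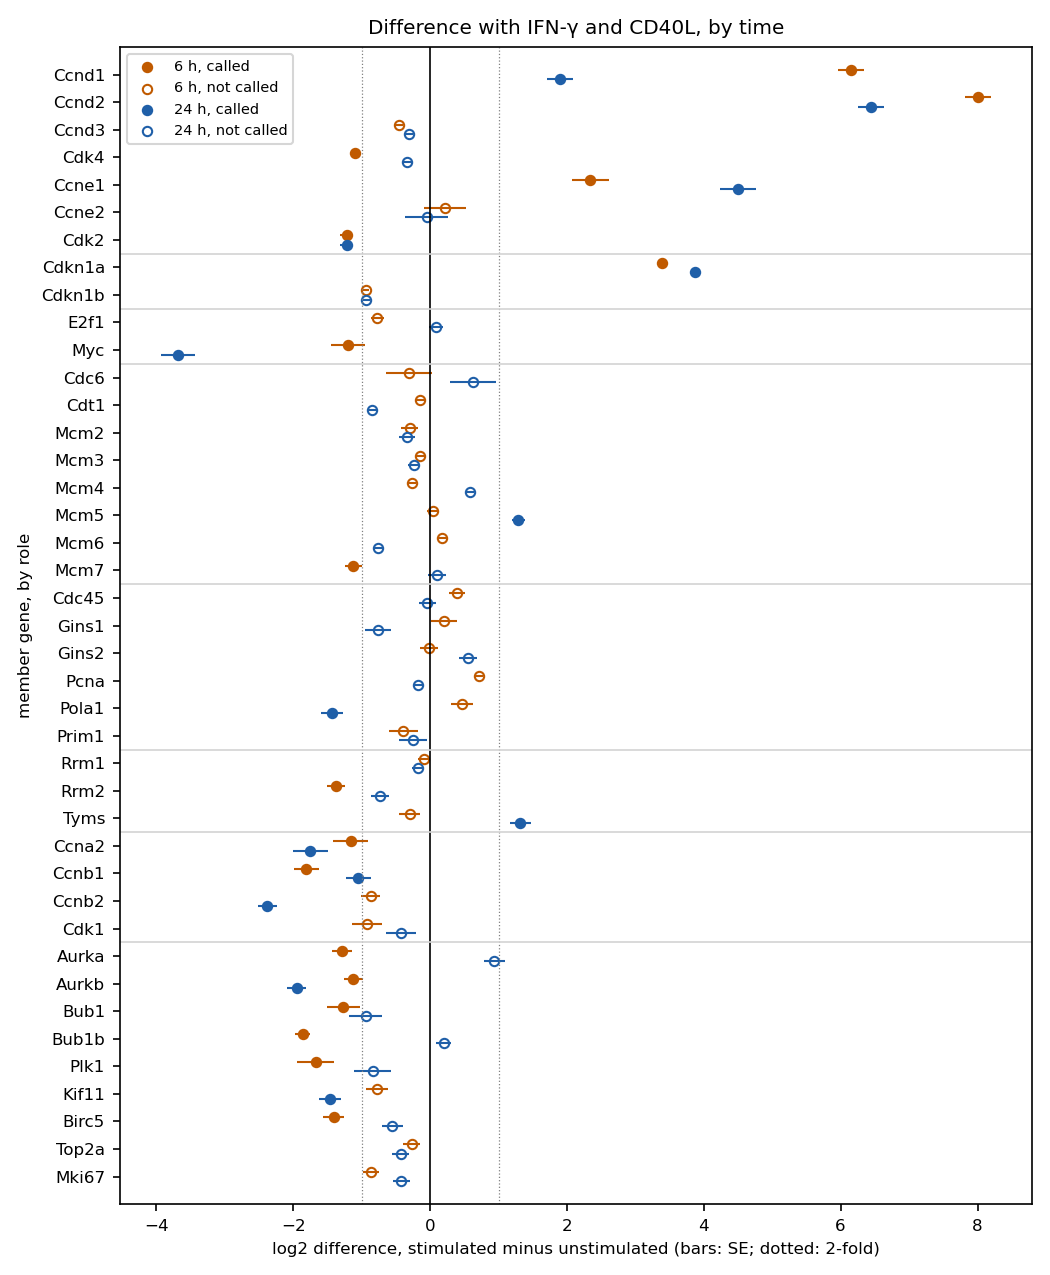
Log2 difference between stimulated and unstimulated libraries (horizontal axis) for each member (vertical axis, by role) at 6 h (orange) and 24 h (blue), from 4 libraries a side with SE bars, filled where called. *Ccnd2*, *Ccnd1*, *Ccne1* and *Cdkn1a* lie far to the right at both times, *Myc* at 24 h farthest to the left, and most licensing and fork genes within 2-fold of 0.

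The D cyclins, the first regulatory subunits made when a cell is driven through G1, included the 2 of the 41 members with the largest difference with stimulus at 6 h, *Ccnd2* and *Ccnd1*. At 6 h *Ccnd2* (cyclin D2) was at 2.0, 1.32, 1.77 and 1.22 CPM in unstimulated libraries 1, 2, 3 and 4 and at 598.5, 347.6, 328.7 and 361.6 CPM in stimulated libraries 26, 10, 11 and 12. At 24 h it was at 1.14, 1.14, 1.11 and 1.39 CPM in unstimulated libraries 43, 44, 45 and 46 and at 102.4, 77.7, 111.9 and 131.7 CPM in stimulated libraries 55, 56, 57 and 58. The stimulated libraries lay far above the unstimulated ones at both times, with library 26 highest of all. The rise with stimulus was 256.6-fold at 6 h (log2 8.0, SE 0.19, adjusted p = 6.95e-14) and 87.4-fold at 24 h (log2 6.45, SE 0.19, adjusted p = 1.06e-12). The effect at 24 h was below that at 6 h (log2 -1.55, SE 0.27, adjusted p = 0.00017), a difference not called after quantile normalization (-0.79) or with voom weights (-1.51). With time *Ccnd2* fell 3.81-fold in stimulated cells (log2 -1.93, SE 0.19, adjusted p = 4.63e-07), and without stimulus its difference was not called (log2 -0.38, SE 0.19, adjusted p = 0.0994).

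At 6 h *Ccnd1* (cyclin D1) was at 0.722, 0.666, 0.918 and 1.46 CPM in unstimulated and 77.6, 62.1, 55.3 and 61.3 CPM in stimulated libraries, in the same order. At 24 h it was at 4.01, 4.45, 3.62 and 5.87 CPM in unstimulated and 17.5, 10.7, 15.8 and 24.5 CPM in stimulated libraries. No group of 4 overlapped another, and the unstimulated libraries at 6 h were lowest. *Ccnd1* rose 70.9-fold with stimulus at 6 h (log2 6.15, SE 0.19, adjusted p = 9.34e-13) and 3.72-fold at 24 h (log2 1.90, SE 0.19, adjusted p = 4.83e-07), and the difference between these effects was the largest interaction of the 41 members (log2 -4.25, SE 0.27, adjusted p = 1.14e-08). With time it rose 4.92-fold without stimulus (log2 2.30, SE 0.19, adjusted p = 1.44e-07) and fell 3.87-fold with it (log2 -1.95, SE 0.19, adjusted p = 3.41e-07). *Ccnd3* (cyclin D3) was not called with stimulus or time at the deposited scaling. Its means were 103.2 ± 3.94, 75.1 ± 1.95, 85.9 ± 5.89 and 69.8 ± 10.2 CPM (SD, n = 4) in unstimulated and stimulated libraries at 6 h and then at 24 h, and its difference with stimulus was -0.46 at 6 h (-1.19 and called lower when scaled to own reads) and -0.31 at 24 h.

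The kinases that these cyclins activate fell with stimulus at 6 h. *Cdk4*, the partner of the D cyclins, had means of 62.7 ± 4.25, 29.5 ± 4.54, 63.8 ± 0.635 and 50.5 ± 3.37 CPM (SD, n = 4, in the order of unstimulated and stimulated at 6 h, then at 24 h), and fell 2.14-fold with stimulus at 6 h (log2 -1.10, SE 0.07, adjusted p = 6.76e-09). This call was lost when libraries were centred on medians (-0.92). *Cdk2*, the partner of the E cyclins, had means of 56.7 ± 2.11, 24.6 ± 3.75, 36.9 ± 1.64 and 15.8 ± 0.951 CPM and fell 2.33-fold at 6 h (log2 -1.22, SE 0.09, adjusted p = 2.75e-08) and 2.33-fold at 24 h (log2 -1.22, SE 0.09, adjusted p = 3.27e-08). At 6 h *Ccne1* (cyclin E1) was at 6.56, 6.52, 7.84 and 9.08 CPM in unstimulated and 32.1, 38.8, 39.6 and 40.9 CPM in stimulated libraries, and at 24 h at 1.19, 0.785, 0.837 and 0.328 CPM and 14.6, 19.6, 16.6 and 14.1 CPM. The stimulated libraries were above the unstimulated ones at each time without overlap. *Ccne1* rose 5.07-fold at 6 h (log2 2.34, SE 0.27, adjusted p = 2.33e-06) and 22.6-fold at 24 h (log2 4.50, SE 0.27, adjusted p = 2.40e-09), and the effect at 24 h was the greater (log2 2.16, SE 0.39, adjusted p = 0.000221). With time it fell 10.4-fold without stimulus (log2 -3.38, SE 0.27, adjusted p = 1.31e-07) and 2.34-fold with it (log2 -1.23, SE 0.27, adjusted p = 0.001), the latter not called when scaled to own reads (-0.85). *Ccne2* (cyclin E2), at means of 5.37 ± 1.13, 6.34 ± 1.61, 1.16 ± 0.398 and 1.17 ± 0.647 CPM, differed with stimulus by log2 0.22, SE 0.31, adjusted p = 0.531 at 6 h and by log2 -0.05, SE 0.31, adjusted p = 0.894 at 24 h, and fell with time 4.81-fold without (log2 -2.27, SE 0.31, adjusted p = 2.34e-05) and 5.79-fold with stimulus (log2 -2.53, SE 0.31, adjusted p = 4.39e-06).

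*Cdkn1a* encodes p21, the inhibitor of cyclin and kinase complexes that p53 induces, and it rose with stimulus at both times. At 6 h it was at 226.1, 218.6, 194.9 and 171.7 CPM in unstimulated and 2386.8, 2083.2, 2005.5 and 2026 CPM in stimulated libraries, and at 24 h at 86.4, 105.2, 95.2 and 104.5 CPM and 1417, 1347.1, 1509.2 and 1417.5 CPM. The lowest stimulated library was above the highest unstimulated library at either time. The rise was 10.5-fold at 6 h (log2 3.39, SE 0.07, adjusted p = 1.92e-14) and 14.6-fold at 24 h (log2 3.87, SE 0.07, adjusted p = 1.27e-14), and the difference between these was under 2-fold (log2 0.47, SE 0.10, adjusted p = 0.000909). With time *Cdkn1a* fell 2.07-fold without stimulus (log2 -1.05, SE 0.07, adjusted p = 2.26e-08), a call lost without library 43 (-0.98), and with stimulus the difference was -0.58 and was not called. *Cdkn1b*, which encodes the inhibitor p27, was lower with stimulus by just under 2-fold at the deposited scaling, and was called lower at both times when scaled to own reads (-1.67 and -1.26) or after quantile normalization (-1.01 and -1.11). Its means were 60.5 ± 5.6, 31.5 ± 0.811, 59.6 ± 4.41 and 31.3 ± 3.19 CPM, with differences with stimulus of log2 -0.94, SE 0.05, adjusted p = 3.30e-10 at 6 h and log2 -0.93, SE 0.05, adjusted p = 4.55e-10 at 24 h, and of -0.02 and -0.01 with time.

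*Myc*, a transcription factor that promotes growth and entry into the cycle, fell with stimulus at both times. At 6 h it was at 4.11, 5.96, 3.7 and 3.82 CPM in unstimulated and 2.19, 1.23, 1.72 and 2.68 CPM in stimulated libraries, and at 24 h at 10.2, 13.9, 12.0 and 16.4 CPM and 0.85, 0.843, 1.09 and 1.31 CPM. The unstimulated libraries at 24 h were the highest and the groups with and without stimulus did not overlap at either time. *Myc* fell 2.29-fold with stimulus at 6 h (log2 -1.20, SE 0.25, adjusted p = 0.000501), a call lost without library 10 (-0.99), and 12.8-fold at 24 h (log2 -3.68, SE 0.25, adjusted p = 7.13e-09), with an interaction of -2.48 (SE 0.35, adjusted p = 2.49e-05). With time it rose 2.99-fold without stimulus (log2 1.58, SE 0.25, adjusted p = 7.41e-05) and differed by log2 -0.90, SE 0.25, adjusted p = 0.00432 with it. *E2f1*, the activator of S phase genes, had means of 9.56 ± 0.872, 5.7 ± 1.17, 16.9 ± 3.8 and 17.7 ± 1.65 CPM. Its difference with stimulus was not called at 6 h (log2 -0.77, SE 0.10, adjusted p = 7.54e-06, -1.50 and called when scaled to own reads) or at 24 h (log2 0.09, SE 0.10, adjusted p = 0.457), and it rose 3.15-fold with time in stimulated cells (log2 1.65, SE 0.10, adjusted p = 2.86e-09), the only member to do so there at the deposited scaling (*Cdk4* was also called higher when scaled to own reads, 1.16), while without stimulus the difference was 0.80.

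**Figure D4:**
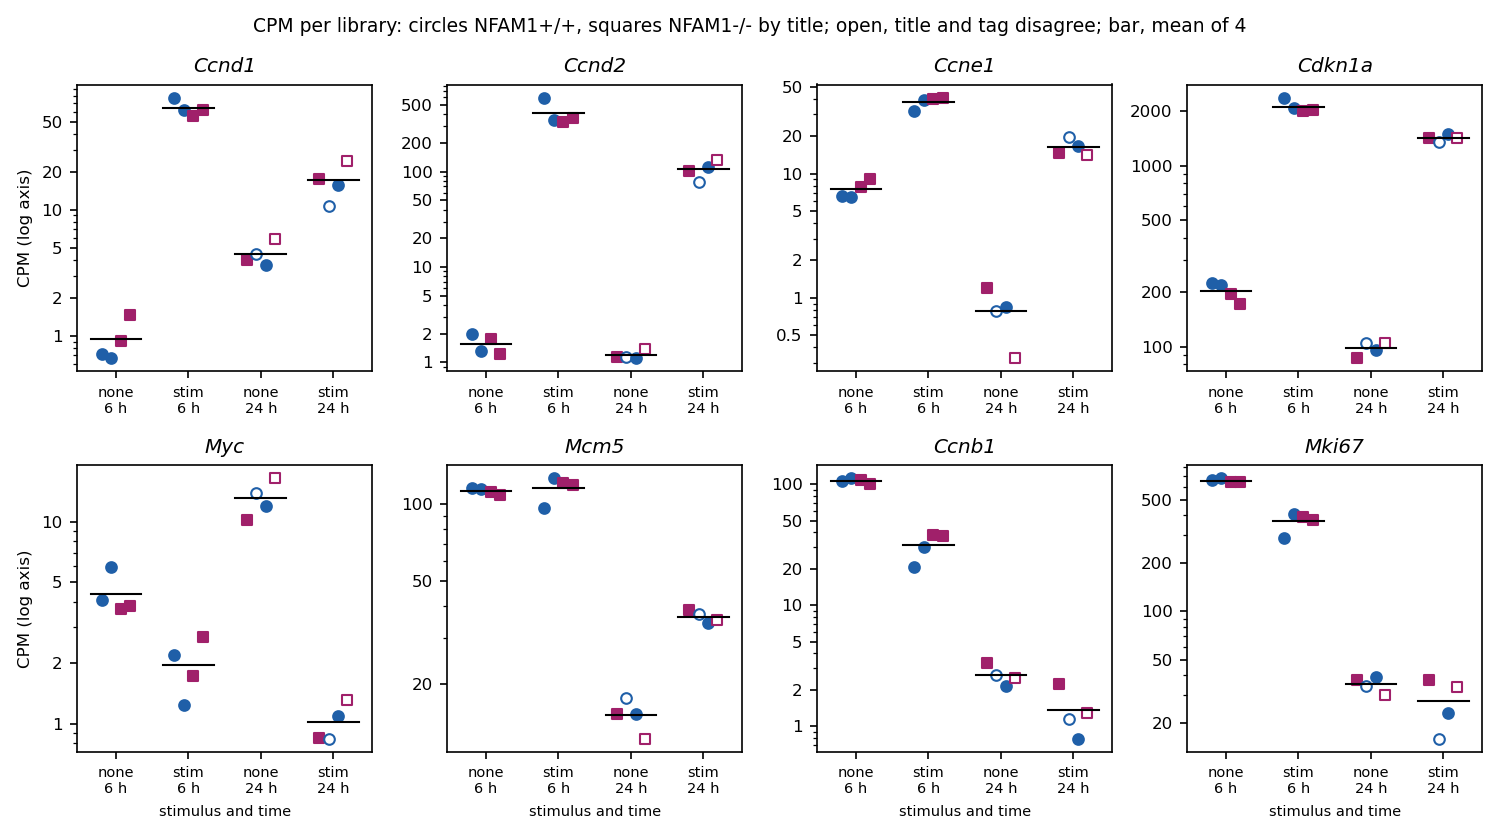
CPM on a log axis for 8 members in each library, by stimulus and time, with circles for NFAM1+/+ and squares for NFAM1-/- by title, open symbols for the 4 libraries whose title and tag disagree, and a bar at the mean of 4. Stimulated libraries lie above unstimulated ones at both times for *Ccnd1*, *Ccnd2*, *Ccne1* and *Cdkn1a* and below them for *Myc*, and *Ccnb1* and *Mki67* are lower at 24 h than at 6 h in every library.

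The origin licensing genes load the helicase Mcm2 to Mcm7 onto DNA with the help of Cdc6 and Cdt1. With stimulus at 6 h 1 of the 8 was called at the deposited scaling, where 19.1% of all genes were called higher and 20.6% lower. When scaled to own reads 3 of the 8 were called lower, *Mcm7* (-1.85), *Cdc6* (-1.05) and *Mcm2* (-1.03), and the differences of all 8 were negative. Of all genes 5563 were called lower under that scaling. *Mcm5* was at 115.3, 114.2, 111.3 and 108.2 CPM in unstimulated and 97.0, 126.4, 120.9 and 118.5 CPM in stimulated libraries at 6 h, and at 15.2, 17.6, 15.2 and 12.2 CPM and 38.6, 37.4, 34.3 and 35.5 CPM at 24 h. The groups overlapped at 6 h and were apart at 24 h. *Mcm5* differed by log2 0.04, SE 0.09, adjusted p = 0.709 at 6 h and rose 2.44-fold at 24 h (log2 1.29, SE 0.09, adjusted p = 8.53e-09, 0.95 and not called when scaled to own reads), and the effects differed (log2 1.25, SE 0.12, adjusted p = 9.16e-07). *Mcm7*, at means of 63.6 ± 3.06, 29.5 ± 4.8, 13.2 ± 1.22 and 14.4 ± 3.01 CPM, fell 2.17-fold at 6 h (log2 -1.12, SE 0.13, adjusted p = 2.43e-06, -0.94 and not called when centred on medians) and differed by log2 0.10, SE 0.13, adjusted p = 0.506 at 24 h, with a called interaction (log2 1.22, SE 0.19, adjusted p = 5.24e-05).

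The other licensing genes were not called with stimulus at either time at the deposited scaling, while *Cdt1* and *Mcm6* were called lower at 24 h when scaled to own reads (-1.19 and -1.09) and *Cdc6* higher after quantile normalization (1.07). Means in unstimulated and stimulated libraries at 6 h, then at 24 h, were 25.5 ± 1.79, 20.9 ± 3.27, 8.21 ± 1.21 and 6.47 ± 0.803 CPM for *Mcm2*. They were 76.0 ± 4.4, 69.2 ± 7.74, 33.9 ± 2.7 and 28.7 ± 3.18 CPM for *Mcm3* and 40.4 ± 1.3, 33.8 ± 2.63, 20.7 ± 2.33 and 30.9 ± 1.52 CPM for *Mcm4*. For *Mcm6*, the member of this group with the deepest fall with time under stimulus, they were 52.4 ± 3.18, 59.4 ± 6.25, 23.3 ± 1.21 and 13.8 ± 0.525 CPM. The loading factor *Cdc6* was at 3.94 ± 0.26, 3.19 ± 0.449, 0.586 ± 0.168 and 1.0 ± 0.552 CPM, and its partner *Cdt1*, alone in this group in being highest at 24 h without stimulus, at 26.8 ± 3.9, 24.3 ± 2.79, 45.2 ± 1.69 and 25.1 ± 2.3 CPM. With time 6 of the 8 fell in each stimulus, where 7.76% of all genes were called lower without stimulus and 17.2% with it. The deepest falls without stimulus were 7.52-fold in *Mcm5* (log2 -2.91, SE 0.09, adjusted p = 1.16e-11) and 6.91-fold in *Cdc6* (log2 -2.79, SE 0.34, adjusted p = 7.95e-06), and with stimulus 4.3-fold in *Mcm6* (log2 -2.10, SE 0.07, adjusted p = 6.29e-12) and 3.58-fold in *Cdc6* (log2 -1.84, SE 0.34, adjusted p = 0.000224). The fall of *Mcm7* with stimulus was 2.07-fold and that of *Mcm3* 2.41-fold, and both calls were lost when scaled to own reads (-0.68 and -0.90). The call of *Mcm7* was also lost without library 10 (-0.94), without library 58 (-0.88) and without the 4 libraries whose labels disagree (-0.86). The 2 not called with time were *Cdt1* and *Mcm4*.

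At the replication fork, where Cdc45 and the GINS complex activate the helicase, primase and DNA polymerase alpha start each strand and the sliding clamp Pcna holds the polymerase, 0 of 6 genes were called with stimulus at 6 h and *Pola1* alone at 24 h. Of all genes 19.1% were called higher and 20.6% lower at 6 h, and 14.6% and 18.7% at 24 h. *Pola1*, the catalytic subunit of polymerase alpha, was at 21.0, 23.7, 26.3 and 24.8 CPM and 26.9, 34.8, 39.5 and 32.4 CPM at 6 h and at 4.82, 4.73, 5.73 and 3.21 CPM and 2.54, 1.47, 0.997 and 2.17 CPM at 24 h in unstimulated and stimulated libraries. At the deposited scaling the stimulated libraries were the higher at 6 h and the lower at 24 h. The difference was log2 0.47, SE 0.16, adjusted p = 0.0157 at 6 h (-0.26 when scaled to own reads) and a fall of 2.69-fold at 24 h (log2 -1.43, SE 0.16, adjusted p = 1.83e-06), with a called interaction (log2 -1.90, SE 0.23, adjusted p = 5.44e-06). The largest difference at 6 h was that of *Pcna*, at means of 116.7 ± 3.68, 191.2 ± 15.2, 87.6 ± 9.73 and 77.0 ± 2.23 CPM (log2 0.71, SE 0.07, adjusted p = 7.44e-07, under 2-fold), which was -0.02 when scaled to own reads, where *Prim1* alone of these genes was called (-1.12).

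The primase subunit *Prim1* was at means of 24.9 ± 1.22, 19.3 ± 3.58, 1.63 ± 0.387 and 1.38 ± 0.409 CPM and *Cdc45* at 31.4 ± 3.55, 41.3 ± 6.42, 2.74 ± 0.244 and 2.69 ± 0.412 CPM. Of the GINS genes, *Gins1* was at 11.6 ± 1.95, 13.4 ± 2.08, 2.93 ± 0.738 and 1.72 ± 0.369 CPM and *Gins2* at 5.7 ± 0.257, 5.67 ± 0.491, 3.69 ± 0.437 and 5.42 ± 0.368 CPM. Without stimulus *Prim1* fell 15.6-fold with time (log2 -3.96, SE 0.21, adjusted p = 2.17e-09) and *Cdc45* 11.4-fold (log2 -3.51, SE 0.12, adjusted p = 3.50e-11). With stimulus *Pola1* fell 19.6-fold (log2 -4.29, SE 0.16, adjusted p = 2.75e-11) and *Cdc45* 15.3-fold (log2 -3.94, SE 0.12, adjusted p = 5.43e-12). *Gins2* was not called with time in either, and *Pcna* fell 2.48-fold with stimulus alone (log2 -1.31, SE 0.07, adjusted p = 1.43e-09), a call lost when scaled to own reads (-0.94) or after quantile normalization (-0.98).

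The genes that supply deoxynucleotides, the ribonucleotide reductase subunits *Rrm1* and *Rrm2* and thymidylate synthase (*Tyms*), all fell with time. Of all genes 7.76% were called lower with time without stimulus and 17.2% with it. *Rrm2* was at 70.6, 77.8, 70.9 and 71.3 CPM in unstimulated and 20.6, 30.7, 30.4 and 31.7 CPM in stimulated libraries at 6 h, and at 3.06, 2.27, 1.86 and 3.64 CPM and 1.72, 1.37, 1.6 and 1.66 CPM at 24 h. The groups did not overlap, and library 26 was the lowest stimulated library at 6 h. *Rrm2* fell 2.6-fold with stimulus at 6 h (log2 -1.38, SE 0.13, adjusted p = 1.77e-07) and differed by -0.73 at 24 h, and with time it fell 27.7-fold without (log2 -4.79, SE 0.13, adjusted p = 6.71e-12) and 17.6-fold with stimulus (log2 -4.14, SE 0.13, adjusted p = 4.59e-12). *Tyms*, at means of 14.6 ± 1.12, 12.0 ± 2.2, 1.44 ± 0.135 and 3.6 ± 0.438 CPM, rose 2.5-fold with stimulus at 24 h (log2 1.32, SE 0.15, adjusted p = 1.77e-06, 0.99 and not called when scaled to own reads), while at 6 h its difference was -0.30. Its interaction was called (log2 1.62, SE 0.21, adjusted p = 1.14e-05), and it fell 10.2-fold with time without (log2 -3.35, SE 0.15, adjusted p = 3.54e-10) and 3.31-fold with stimulus. *Rrm1*, at 143.5 ± 11.9, 135.3 ± 16.6, 14.8 ± 0.995 and 13.1 ± 1.37 CPM, differed with stimulus by -0.09 and -0.18 and fell 10.3-fold with time under stimulus (log2 -3.36, SE 0.08, adjusted p = 9.86e-13).

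Cyclins A2, B1 and B2 with their kinase Cdk1 drive S phase and entry into mitosis. *Ccnb1* was at 106.3, 112.1, 108.5 and 100.3 CPM in unstimulated and 20.5, 30.1, 37.7 and 36.9 CPM in stimulated libraries at 6 h, and at 3.32, 2.66, 2.14 and 2.52 CPM and 2.23, 1.15, 0.787 and 1.29 CPM at 24 h. All libraries of 6 h were above all of 24 h, and the groups with and without stimulus were apart at 6 h and overlapped at 24 h. *Ccnb1* fell 3.51-fold with stimulus at 6 h (log2 -1.81, SE 0.18, adjusted p = 5.27e-07) and 2.07-fold at 24 h (log2 -1.05, SE 0.18, adjusted p = 0.00014), the latter lost after quantile normalization (-0.67) and without any of libraries 43, 44, 57 and 58 (-0.85 to -0.97). At 6 h *Ccnb2* was at 92.0, 109.2, 99.2 and 100.6 CPM in unstimulated and 39.7, 55.3, 65.2 and 63.6 CPM in stimulated libraries, and at 24 h at 7.03, 5.45, 4.5 and 5.06 CPM and 1.66, 0.815, 0.667 and 1.31 CPM. Its stimulated libraries were below the unstimulated ones at both times. The difference was -0.87 at 6 h, not called, and a fall of 5.21-fold at 24 h (log2 -2.38, SE 0.14, adjusted p = 1.43e-09), and its interaction (log2 -1.52, SE 0.20, adjusted p = 1.12e-05) was not called after quantile normalization (-0.95).

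*Ccna2*, at means of 158.4 ± 8.58, 72.1 ± 14.1, 4.37 ± 0.405 and 1.45 ± 0.759 CPM, fell 2.23-fold with stimulus at 6 h (log2 -1.16, SE 0.26, adjusted p = 0.000928, -0.98 and not called when centred on medians) and 3.36-fold at 24 h (log2 -1.75, SE 0.26, adjusted p = 2.73e-05). *Cdk1*, at 79.6 ± 12.0, 42.9 ± 10.2, 1.9 ± 0.409 and 1.47 ± 0.615 CPM, was not called at 6 h (log2 -0.92, SE 0.22, adjusted p = 0.00148) or at 24 h (log2 -0.43, SE 0.22, adjusted p = 0.0839). All 4 fell with time in each stimulus, where 7.76% of all genes were called lower without stimulus and 17.2% with it. Without stimulus the falls reached 42.5-fold in *Cdk1* (log2 -5.41, SE 0.22, adjusted p = 1.43e-10) and 40.7-fold in *Ccnb1* (log2 -5.35, SE 0.18, adjusted p = 3.12e-11), and with stimulus 54.9-fold in *Ccna2* (log2 -5.78, SE 0.26, adjusted p = 1.35e-10) and 52.6-fold in *Ccnb2* (log2 -5.72, SE 0.14, adjusted p = 9.52e-13).

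Of the 9 mitosis genes, 6 fell with stimulus at 6 h, where 20.6% of all genes were called lower. At 24 h 2 of the 9 fell, near the 18.7% of all genes called lower. *Bub1b* (BubR1, of the spindle checkpoint) was at 152.9, 178.1, 146.6 and 157.2 CPM in unstimulated and 30.2, 46.5, 50.9 and 50 CPM in stimulated libraries at 6 h, and at 16.9, 18.2, 20.4 and 13.5 CPM and 23.3, 15.4, 16.9 and 24.2 CPM at 24 h. The groups were apart at 6 h and overlapped at 24 h. The fall at 6 h was 3.64-fold (log2 -1.86, SE 0.11, adjusted p = 2.18e-09), the difference at 24 h was log2 0.20, SE 0.11, adjusted p = 0.132, and the interaction was called (log2 2.06, SE 0.16, adjusted p = 9.98e-08). *Plk1*, the Polo-like kinase, was at 89.7, 97.3, 83.5 and 84.3 CPM in unstimulated and 17.1, 29.7, 32.9 and 35.4 CPM in stimulated libraries at 6 h. All stimulated libraries were below all unstimulated ones, with library 26 lowest, and the fall was 3.19-fold (log2 -1.67, SE 0.27, adjusted p = 5.38e-05). The Aurora kinases of the spindle (*Aurka*) and of the chromosomal passenger complex (*Aurkb*) both fell at 6 h, and at 24 h their differences had opposite signs. *Aurka*, at means of 68.8 ± 4.43, 28.9 ± 7.29, 3.85 ± 0.777 and 7.32 ± 1.15 CPM, fell 2.45-fold at 6 h (log2 -1.29, SE 0.15, adjusted p = 1.90e-06) and was 1.92-fold higher at 24 h without being called (log2 0.94, SE 0.15, adjusted p = 5.23e-05, 1.19 and called after quantile normalization), and its interaction was the highest of the members (log2 2.23, SE 0.21, adjusted p = 5.43e-07). *Aurkb*, at 97.6 ± 4.12, 46.3 ± 11.7, 6.12 ± 1.03 and 1.58 ± 0.176 CPM, fell 2.17-fold at 6 h (log2 -1.12, SE 0.14, adjusted p = 6.23e-06), a call lost without library 26 (-0.95) or centred on medians (-0.94), and 3.86-fold at 24 h (log2 -1.95, SE 0.14, adjusted p = 1.98e-08).

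The spindle motor *Kif11*, at means of 184.9 ± 10.5, 109.1 ± 21.2, 4.37 ± 1.16 and 1.66 ± 0.779 CPM, differed with stimulus by -0.78 at 6 h, not called, and fell 2.75-fold at 24 h (log2 -1.46, SE 0.16, adjusted p = 1.79e-06). The checkpoint kinase *Bub1*, at 62.6 ± 4.33, 26.2 ± 4.6, 1.9 ± 0.539 and 1.03 ± 0.431 CPM, fell 2.42-fold at 6 h (log2 -1.27, SE 0.24, adjusted p = 0.000197), and *Birc5* (survivin), at 109.7 ± 9.6, 42.1 ± 9.42, 2.62 ± 0.413 and 1.78 ± 0.175 CPM, fell 2.66-fold (log2 -1.41, SE 0.15, adjusted p = 6.32e-07). *Plk1* was at means of 2.33 ± 0.337 and 1.4 ± 0.551 CPM at 24 h. None of *Bub1*, *Birc5* and *Plk1* was called with stimulus at 24 h, where the differences were -0.94, -0.55 and -0.84.

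The proliferation marker *Mki67* was at 661, 683.3, 646.8 and 642.5 CPM in unstimulated and 289.1, 409.9, 388.3 and 376.1 CPM in stimulated libraries at 6 h, and at 37.5, 34.1, 38.9 and 30.1 CPM and 37.5, 16, 23.0 and 33.7 CPM at 24 h. Topoisomerase IIα (*Top2a*), which untangles chromosomes, was at 454, 519.5, 466.3 and 459.8 CPM and 293.5, 435.4, 441.2 and 427.4 CPM at 6 h and at 10.5, 9.09, 7.08 and 7.9 CPM and 8.01, 5.44, 4.68 and 7.97 CPM at 24 h. In both genes the stimulated libraries at 6 h were below the unstimulated ones, library 26 was the lowest of them, and the groups at 24 h overlapped. The difference with stimulus at 6 h was under 2-fold in *Mki67* (log2 -0.86, SE 0.12, adjusted p = 1.34e-05) and not significant in *Top2a* (log2 -0.27, SE 0.12, adjusted p = 0.059), and both were called lower after quantile normalization (-1.87 and -1.22). All 9 mitosis genes fell with time in each stimulus, where 7.76% of all genes were called lower without stimulus and 17.2% with it. The deepest falls were those of *Top2a* (55.5-fold, log2 -5.79, SE 0.12, adjusted p = 1.67e-12) and *Kif11* (43.6-fold, log2 -5.44, SE 0.16, adjusted p = 1.16e-11) without stimulus. With stimulus they were 69.7-fold in *Kif11* (log2 -6.12, SE 0.16, adjusted p = 1.67e-12) and 62.0-fold in *Top2a* (log2 -5.95, SE 0.12, adjusted p = 2.32e-13), and the smallest was 2.22-fold in *Bub1b*, not called when scaled to own reads (-0.78) or without library 10 (-0.99).

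Other genes of the same processes, in lists of further replication, mitosis and G1 control genes and of p53 targets, are given by their counts, beside the shares of all genes above. Of 30 further mitosis genes 18 fell and 0 rose with stimulus at 6 h, 12 fell and 2 rose at 24 h, and with time 30 fell without and 27 with stimulus. Of 40 further replication genes 7 rose and 2 fell with stimulus at 6 h, 8 rose and 3 fell at 24 h, and with time 23 fell without and 19 fell and 1 rose with stimulus. Of 26 tested G1 control genes 6 rose and 8 fell at 6 h and 5 rose and 6 fell at 24 h. Of 15 tested p53 targets 4 rose and 4 fell at 6 h and 7 rose and 2 fell at 24 h.

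Among these, *Mxd1* of the G1 control list rose from a mean of 15.9 to 1911.2 CPM at 6 h (log2 6.92, SE 0.05, adjusted p = 1.88e-18). At 24 h it rose from 25.9 to 527.4 CPM (log2 4.34, SE 0.05, adjusted p = 3.28e-16). *Rbl1* (p107), a repressor of the retinoblastoma family, rose 7.81-fold at 6 h and 6.57-fold at 24 h, while *Chek2* fell 5.18-fold and *Mnt* 3.95-fold at 6 h, and *Mxi1* 4.48-fold and *Cdkn2c*, an inhibitor of Cdk4, 4.09-fold at 24 h. The mitotic kinesin *Kif20a* fell from 97.9 to 12.0 CPM and *Cdc20*, the activator of the anaphase promoting complex, from 119.6 to 17.4 CPM at 6 h. At 24 h the centromere genes *Cenpa* and *Cenpf* fell 9.91-fold and 6.72-fold, whereas *Tpx2*, the activator of Aurora A, rose from 4.38 to 15.3 CPM (log2 1.84, SE 0.14, adjusted p = 3.76e-08) and *Fzr1* rose 2.36-fold. Of the replication genes, *Timeless* rose from 14.6 to 147 CPM and the clamp loader subunit *Rfc3* from 13.1 to 62.4 CPM at 6 h, while *Pole2* fell 2.97-fold and *Dbf4* 2.22-fold. At 24 h *Pole*, the catalytic subunit of DNA polymerase epsilon, rose 4.67-fold, while *Dut* fell 4.47-fold and *Wdhd1* 2.57-fold. Of the p53 targets, *Plk2* rose 4.52-fold and *Mdm2* from 105.8 to 470.1 CPM at 6 h, and *Phlda3* rose 16.7-fold and *Fas* 6.3-fold at 24 h. Others fell, *Sesn1* from 30.4 to 8.28 CPM and *Phlda3* 3.46-fold at 6 h, and *Sesn1* from 53.8 to 5.43 CPM and *Zmat3* 2.07-fold at 24 h.

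Whether loss of NFAM1 changes these genes was asked within each stimulus and time, with 2 libraries a side. At 6 h without stimulus 0 of the 41 members were called, where 0.0861% of all genes were called in either direction, and with stimulus 0 were called, where 0.0% were. At 24 h without stimulus 0 were called, where 0.289% of all genes were, and with stimulus 2 were higher in NFAM1-/- by title, where 0.579% of all genes were called. The difference between the genotype effects with and without stimulus at 6 h called 0 members, where 0.0% of all genes were called. These are limma counts, and the counts of 0 held under each alternative setting run other than 1 member called lower at 24 h without stimulus when library 43 was left out (*Ccne1*, -1.30, a lone library 46 against 2). At an unadjusted p under 0.05 the counts were 4, 8, 5 and 13 members in these 4 comparisons and 3 in the interaction. Of all 12782 genes the counts were 1289, 1862, 1397, 1988 and 1090 in the same order. The median difference of the members was -0.03 and 0.23 at 6 h and -0.06 and 0.16 at 24 h, without and with stimulus, against 0.01, 0.01, -0.00 and 0.01 for all genes.

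At 6 h the largest genotype difference of each role is given as NFAM1-/- minus NFAM1+/+, none of them called. Without stimulus *Ccnd1* was at 0.918 and 1.46 CPM in NFAM1-/- and 0.722 and 0.666 CPM in NFAM1+/+ libraries, a difference of 0.74 (SE 0.27). *Cdkn1a* differed by -0.28 (SE 0.10), *Myc* by -0.40 (SE 0.35) and *Cdt1* by 0.31 (SE 0.10). The others were *Gins1* with -0.28 (SE 0.27), *Rrm1* with -0.15 (SE 0.12), *Cdk1* with -0.12 (SE 0.31) and *Plk1* with -0.16 (SE 0.38). With stimulus the estimate was positive in 35 of 41 members, among them all 13 S, G2 and M phase genes. The share of positive estimates among all genes was not counted. Of these 13, *Bub1*, *Kif11*, *Top2a* and *Mki67* overlapped between genotypes. The share of all genes without such overlap was not counted, so that no result is read from the genes that were apart. *Mki67* was at 409.9 CPM in NFAM1+/+ library 10 and at 388.3 and 376.1 CPM in the NFAM1-/- libraries. *Ccnb1* was at 37.7 and 36.9 CPM in NFAM1-/- and at 20.5 and 30.1 CPM in NFAM1+/+ libraries, a difference of 0.59 (SE 0.26), and *Plk1* differed by 0.60 (SE 0.38), *E2f1* by 0.48 (SE 0.14) and *Ccne2* by 0.47 (SE 0.44). *Tyms* differed by 0.32 (SE 0.21), *Gins1* by 0.26 (SE 0.27), *Cdc6* by -0.33 (SE 0.48) and *Cdkn1a* by -0.15 (SE 0.10).

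This difference at 6 h with stimulus depended on library 26, an NFAM1+/+ library. That library was the lowest of the 4 stimulated libraries at 6 h in 34 of 41 members (82.9%) and in 35.3% of all genes, its members lay at a median of -0.44 from the other 3, and it was the highest in 5, *Ccnd2* among them. Without it the median genotype difference of the members was 0.04 in place of 0.23 and 0 members had an unadjusted p under 0.05, while without library 10, the other NFAM1+/+ library, these were 0.41 and 24. Counts of all genes at that p in these fits are not given. In the interaction of genotype and stimulus the largest differences were -1.0 (SE 0.38) in *Ccnd1*, 0.78 (SE 0.49) in *Myc*, 0.75 (SE 0.54) in *Plk1*, 0.65 (SE 0.37) in *Ccnb1*, 0.55 (SE 0.39) in *Gins1*, -0.41 (SE 0.68) in *Cdc6*, 0.36 (SE 0.25) in *Rrm2* and -0.28 (SE 0.10) in *Cdkn1b*, none called. The other D cyclins, *Cdkn1b* and *E2f1* differed between genotypes at 6 h without stimulus by -0.15 (*Ccnd2*), 0.01 (*Ccnd3*), 0.23 and 0.19, and with it *Ccnd1*, *Ccnd2*, *Ccnd3*, *Cdkn1b* and *Myc* by -0.25, -0.40, 0.05, -0.06 and 0.39.

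At 24 h the 2 calls with stimulus depended on which label gave the genotype. *Ccnb2* was at 1.66 and 1.31 CPM in the libraries titled NFAM1-/- (55 and 58) and at 0.815 and 0.667 CPM in those titled NFAM1+/+ (56 and 57). *Kif11* was at 1.78 and 2.72 CPM against 1.01 and 1.15 CPM. By title the groups did not overlap, with differences of log2 1.00, SE 0.20, adjusted p = 0.0248 in *Ccnb2* and log2 1.03, SE 0.23, adjusted p = 0.0421 in *Kif11*. By the tag, which places library 56 with NFAM1-/- and library 58 with NFAM1+/+, the differences were 0.32 and -0.40, and without the 4 libraries, which leaves a single library a side, 1.32 and 0.64, with neither called in either reading. By title both calls were also lost after quantile normalization (0.94 and 0.96), with voom weights (0.98 and 1.06), with a prior variance without trend and in a fit of these 4 libraries alone, and both were lost without library 56 (1.15 and 0.94) or 58 (1.17 and 0.73). *Ccnb2* was not called without library 55 (0.83) or 57 (0.86), and *Kif11* not without library 57 (1.12) or any of 8 libraries outside the comparison (1.03 each). Without library 57, 3 other members were called higher, *Ccna2* (1.39), *Plk1* (1.31) and *Mki67* (1.15). *Mki67* was at 37.5 and 33.7 CPM against 16 and 23.0 CPM by title (log2 0.89, SE 0.17, adjusted p = 0.0221, under 2-fold), and its difference was -0.18 by the tag and 0.71 without the 4. *Pola1* differed by log2 0.95, SE 0.23, adjusted p = 0.0486 by title, and by 0.39 and 1.35 in the other readings.

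**Figure D5:**
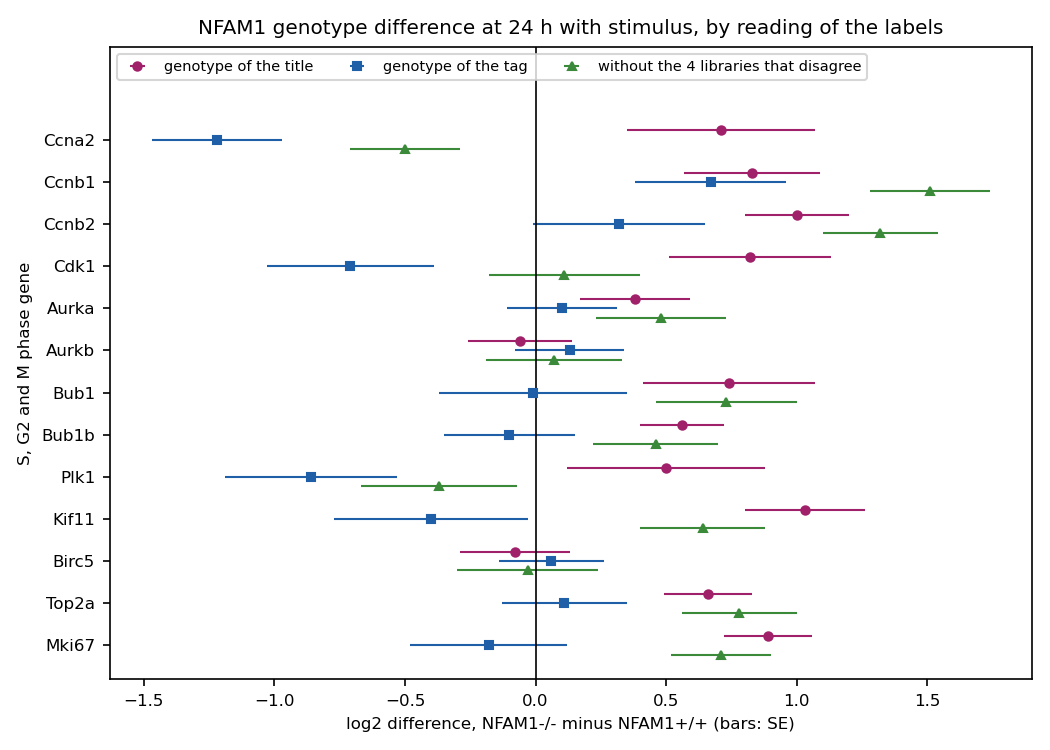
Log2 difference between NFAM1-/- and NFAM1+/+ libraries (horizontal axis, SE bars) for the 13 S, G2 and M phase genes at 24 h with stimulus, by the genotype of the title (magenta circles, 2 libraries a side), of the tag (blue squares, 2 a side) and without the 4 libraries whose labels disagree (green triangles, 1 a side, with the spread taken from the other groups). By title 11 of 13 lie right of 0, and by the tag 6 of 13 do, with *Ccna2* at -1.22 and *Plk1* at -0.86 farthest to the left.

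The remaining roles gave no call at 24 h. With stimulus the largest differences by title were -0.75 (SE 0.44) in *Ccne2*, -0.25 (SE 0.07) in *Cdkn1b*, 0.16 (SE 0.14) in *E2f1*, -0.35 (SE 0.19) in *Mcm7* and 0.23 (SE 0.12) in *Rrm1*, and *Ccnd1*, *Ccnd2*, *Ccnd3*, *Cdkn1a* and *Myc* differed by 0.67, 0.32, 0.33, -0.01 and 0.14. *Ccne2*, *Cdkn1b*, *E2f1*, *Mcm7* and *Rrm1* differed by 0.40, -0.03, 0.11, 0.30 and 0.13 by the tag and by -0.35, -0.28, 0.27, -0.06 and 0.36 without the 4 libraries. By the tag *Ccnd1*, *Ccnd2*, *Ccnd3*, *Cdkn1a* and *Myc* differed by -0.52, -0.44, -0.07, -0.08 and -0.50, and without the 4 libraries by 0.15, -0.13, 0.26, -0.09 and -0.35. Without stimulus the largest were 0.70 (SE 0.18) in *Rrm2*, -0.57 (SE 0.48) in *Cdc6*, 0.56 (SE 0.23) in *Kif11*, -0.55 (SE 0.14) in *E2f1*, -0.55 (SE 0.44) in *Ccne2*, -0.40 (SE 0.23) in *Pola1*, 0.28 (SE 0.26) in *Ccnb1* and 0.15 (SE 0.07) in *Cdkn1b*. By the tag *Rrm2* differed by 0.02, *E2f1* by 0.05 and *Kif11* by 0.42, and without the 4 libraries by 0.72, -0.49 and 0.98, none of them called. *Cdc6*, *Ccne2*, *Pola1*, *Ccnb1* and *Cdkn1b* differed by 0.17, 0.76, 0.16, 0.36 and -0.08 by the tag and by -0.40, 0.21, -0.25, 0.63 and 0.07 without the 4, and none was called. *Ccnd1*, *Ccnd2*, *Ccnd3*, *Cdkn1a* and *Myc* differed without stimulus by 0.27, 0.16, -0.08, -0.07 and 0.00 by title, by -0.12, -0.13, 0.06, -0.06 and -0.24 by the tag and by 0.15, 0.03, -0.02, -0.14 and -0.24 without the 4 libraries.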

How the data were processed

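Polyadenylated RNA of 16 monocyte libraries was sequenced as paired reads with an unstranded kit. The authors checked reads with FastQC, aligned them with STAR (GRCm39 per the submitters' processing notes), counted them per gene with Rsubread and normalized them with edgeR. The deposited values are log2 CPM of 13085 genes. Whole reads could be recovered from them within a tolerance of 0.05 reads, and served for depth, the scaling alternative and voom weights. Symbols of 17 rows appear as dates and were left as given.

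Log2 values were fitted with limma 3.58.1 in R 4.3.3 over 8 groups of 2 libraries, with 8 residual degrees of freedom and a prior variance with trend. Of the genes, 12782 that reached 1 CPM in 2 or more libraries were tested and 303 left out. Calls needed a change of 2-fold or more together with a p under 0.05 after Benjamini-Hochberg adjustment. The fit was tested on simulated data. The members and lists were chosen with earlier results of these data known. Every member is named, with full statistics for up to 2 called members of largest change per role and comparison, and for other lists the 2 largest rises and falls with stimulus. Alternatives were filters, scalings, variance priors, weights, genotype labels and leaving out each library. Libraries with IFN-γ alone were not analysed here, and 1 gene and 1 motif that the rules would name are not reported here.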

Additional observations from a re-analysis of the deposited data

Results flagged for a closer look

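In sets of 4 libraries of the same stimulus and time, Dixon's ratio (the gap of the highest or lowest library to its neighbour over the whole range) passed its critical value in 15 of 164 sets, where chance passes about 1 in 20 of independent sets. The members share the same libraries, so that the sets are not independent and that rate does not test the count of 15 flagged sets. Of these, 9 were in library 26 among the stimulated libraries at 6 h, where *Ccnd2* (0.84) was high and *Ccne2* (0.914), *Mcm3* (0.883), *Gins1* (0.886), *Rrm1* (0.93), *Rrm2* (0.899), *Tyms* (0.925), *Kif11* (0.905) and *Top2a* (0.922) were low. At 6 h without stimulus the ratio was 0.902 for *Cdc6* in library 3, 0.941 for *Prim1* in library 1 and 0.905 for *Rrm2* in library 2. At 24 h it was 0.891 for *Ccnd2* in library 46 and 0.847 for *Gins2* in library 44 without stimulus, and 0.897 for *Mcm7* in library 58 with stimulus.

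The stimulus effect differed between times, tested as the interaction in limma, in 11 of the 41 members. Of all genes 13.3% were called higher and 18.2% lower in that interaction. The effect at 24 h minus that at 6 h was -4.25 in *Ccnd1*, -1.55 in *Ccnd2*, -2.48 in *Myc*, -1.90 in *Pola1* and -1.52 in *Ccnb2* on the log2 scale. It was 2.16 in *Ccne1*, 1.25 in *Mcm5*, 1.22 in *Mcm7*, 1.62 in *Tyms*, 2.23 in *Aurka* and 2.06 in *Bub1b*.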

How the results depend on the processing

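Of the 107 called differences of single members, 89 kept their direction and call under every alternative in which they were tested. Another 18 lost the call under at least 1, with 1 of them reversed (*Kif11* between genotypes at 24 h with stimulus, -0.40 by the tag). The filter at a mean of 5 CPM tested 103 of the 107. The fit of only the libraries compared does not apply to the interaction of stimulus and time. Without a minimum fold, members called were 8 higher and 22 lower with stimulus at 6 h, 23 lower at 24 h, 4 higher with time without and 2 higher with stimulus, 15 higher and 12 lower in the interaction, and 4 higher between genotypes at 24 h with stimulus. Genes called then were 10003 and 9564 with stimulus at 6 and 24 h, 8233 and 9763 with time, 8588 in the interaction, and 20, 122 and 269 between genotypes at 6 h without stimulus and at 24 h without and with it. With a mean of at least 5 CPM, which tested 9249 genes, these were 3275, 2554, 1446, 2746, 2658 and, at 6 h between genotypes without stimulus, 5. Scaled to own reads, 24 and 15 members were lower with stimulus at 6 and 24 h, 2 higher with time under stimulus and 14 higher in the interaction. In the interaction quantile normalization gave 14 higher and 3 lower members, and centring on medians 8 lower.

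Between genotypes at 24 h with stimulus, 1 member was higher when centred on medians, and 0 after quantile normalization, without trend in the prior variance, with voom weights, in a fit of the libraries compared, by the tag and without the 4 libraries whose labels disagree. Genes called there were 5 without trend, 0 in the fit of those libraries, 3 by the tag and 14 without the 4, in place of 74. At 24 h without stimulus they were 14, 21, 2 and 4 in place of 37. At 6 h they were 5 by the tag in place of 11 without stimulus, and 4 after quantile normalization and 3 without the 4 libraries in place of 0 with stimulus. The causes were not tested.

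Leaving out each library in turn gave 1 to 40 genes between genotypes at 6 h without and 0 to 126 with stimulus, 7 to 64 and 1 to 182 at 24 h, 0 to 55 in the interaction of genotype and stimulus, 0 to 1 members lower at 24 h without stimulus and 0 to 3 higher with it. Where this left 1 library in a group, it was assumed to vary like the other groups. No paired analysis was possible because the labels number libraries singly and give no shared replicate number. With 2 libraries a side the genotype comparisons have little precision.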
